A study of Mus musculus with 6 samples.

Results

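Axon guidance genes were followed in bone cells of dexamethasone-treated mice. The genes were those of the semaphorins, plexins, ephrins, Eph receptors, Slits, Robo receptors, netrins and Unc5 receptors, chosen by gene symbol alone. They were 64 of the 29616 genes in the table, namely 20 semaphorins, 9 plexins, 8 ephrins, 12 Eph receptors, 3 Slits, 4 Robo receptors, 4 netrins and 4 Unc5 receptors. Epha5 and Epha7 also carry such symbols and were not analysed here. Both groups were C57BL/6 mice with no transgene named in the labels. The dexamethasone group was given the synthetic glucocorticoid dexamethasone from 8 weeks of age (each day 0.08 µg/g, over 4 weeks in all), and the controls were not. According to the study's methods, RNA came from Osteocalcin-positive cells of demarrowed bones, with the sort resting on antibody staining of this osteoblast protein. RNA was sequenced from 3 control and 3 dexamethasone libraries, and the sources used here do not say whether mice were pooled for a library.

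Semaphorins, ephrins, Slits and netrins are secreted or membrane-bound cues that steer growing axons, migrating cells and sprouting vessels. Semaphorins act through plexins, and most of the secreted class 3 members also need neuropilins as co-receptors. Ephrins bind Eph receptor tyrosine kinases on neighbouring cells and signal in both directions, Slits bind Robo receptors, and netrins bind Dcc, neogenin and the Unc5 receptors. In bone, semaphorins and the pair of ephrin-B2 and EphB4 are known for signals between osteoclasts and osteoblasts.

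The values were normalised counts, which are the reads of a gene divided by a size factor of its library. Library depth was between 72596611 and 89910728 reads. Genes with a mean of at least 10 normalised counts were tested with limma on log2(count + 1), which understates the change of genes with few reads. A gene was called higher or lower with dexamethasone when the adjusted p was under 0.05 and the log2 change was 1 or more in size. Of the osteoblast markers, Osteocalcin (Bglap) had 98.2 to 122 normalised counts in the controls and 9.54 to 15.1 with dexamethasone, and 7 of 8 markers were called lower. The remaining one, Spp1, rose 38.1-fold and carried the sum of the list from between 984620 and 1052400 to between 1508700 and 1581000. Of 4 osteocyte markers in the table, Dmp1 was called higher (146-fold) and the other 3 were not called. Markers of other cells moved too, within most lists through a few members. Of 6 hematopoietic markers, Cd53 and Itgb2 were called higher and Coro1a and Laptm5 lower, Cd52 was not called, Ptprc had 5 reads or fewer in every library, and the sum ranged from 105 to 140 in the controls and from 789 to 842 with dexamethasone. Of 6 smooth muscle and pericyte markers, only Acta2 was called (lower, with a mean of 144918 and 12449), and the sum ranged from 148090 to 155940 and from 21898 to 23354. Of 7 endothelial markers in the table, Esam was called higher (means of 14.3 and 33.0), and Cdh5 and Tie1 had 3 reads or fewer in every library. The sum ranged from 384 to 415 and from 465 to 509, most of it Kdr (means of 348 and 414, not called). Pecam1 (means of 15.7 and 26.3) and Tek (means of 12.6 and 8.11) were not called. Of 4 neuronal markers in the table, Tubb3 was called higher. Snap25 had 3 reads or fewer in every library and Syt1 5 or fewer. Elavl3 had means of 37.3 and 18.3 and a log2 change of -0.9996 (limma adjusted p = 0.00273), and was not called. The sum ranged from 1094 to 1255 and from 4153 to 4262, most of it Tubb3 (means of 1128 and 4190). All 6 cell cycle markers were called higher, with sums of 29897 to 32041 and of 187430 to 200620. Of 6 chondrocyte markers, Sox9 and Col2a1 were called higher and Comp lower, Acan had 6 reads or fewer in every library, Col9a1 and Matn1 had 3 or fewer, and the list summed to 5949 to 6403 and 22111 to 24968. Of 6 adipocyte markers, only Fabp4 was called (higher, with a mean of 2.16 and 1448), Cidec and Lep had 3 reads or fewer in every library, and the list summed to 28.4 to 36.0 and 1437 to 1545. Of 6 osteoclast markers, Atp6v0d2 was called higher and Mmp9 lower, with sums of 12886 to 13504 and 8211 to 8634. Most of these sums was Ctsk, with means of 13146 and 8353 and no call. Acp5 had 0, 0 and 0 reads in the controls and 7, 26 and 17 with dexamethasone. Ocstamp had 0, 6 and 1 reads and 20, 6 and 14, and Calcr had 4 or fewer. Acp5, Ocstamp and Calcr were not tested. Of the called markers, Coro1a, Laptm5, Mmp9, Atp6v0d2 and Fabp4 passed the filter only through the group in which they were higher. Of the glial markers S100b was called lower, with sums of 676 to 714 and 487 to 525. The part of these markers in the guidance gene results was not tested. In these bulk libraries a larger or smaller share of cells of a type and more or less RNA per cell cannot be told apart.

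Of the 64 guidance genes, 51 passed the filter and 13 did not. Among all 17442 genes tested, 22.3% were called, 11.7% higher and 10.6% lower. Among the guidance genes, 18 were called, or 35.3% of those tested, 9 of them higher and 9 lower. The called genes included both cues and receptors. Of 30 tested cues, 7 were called higher and 4 lower, and of 21 tested receptors, 2 were called higher and 5 lower. An adjusted p under 0.05 without the requirement on the fold change was found for 42 guidance genes, 21 higher and 21 lower. Of all genes tested, 72.5% had one, 37.2% higher and 35.2% lower. The libraries of the 2 groups did not overlap for 41 guidance genes (80.4%), where this held for 74.7% of all genes tested. The median log2 change of the 51 genes was -0.02, and over all genes tested it was 0.00071. The median size of the change in either direction was 0.72 for the guidance genes and 0.45 for all genes.

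**Figure D1:**
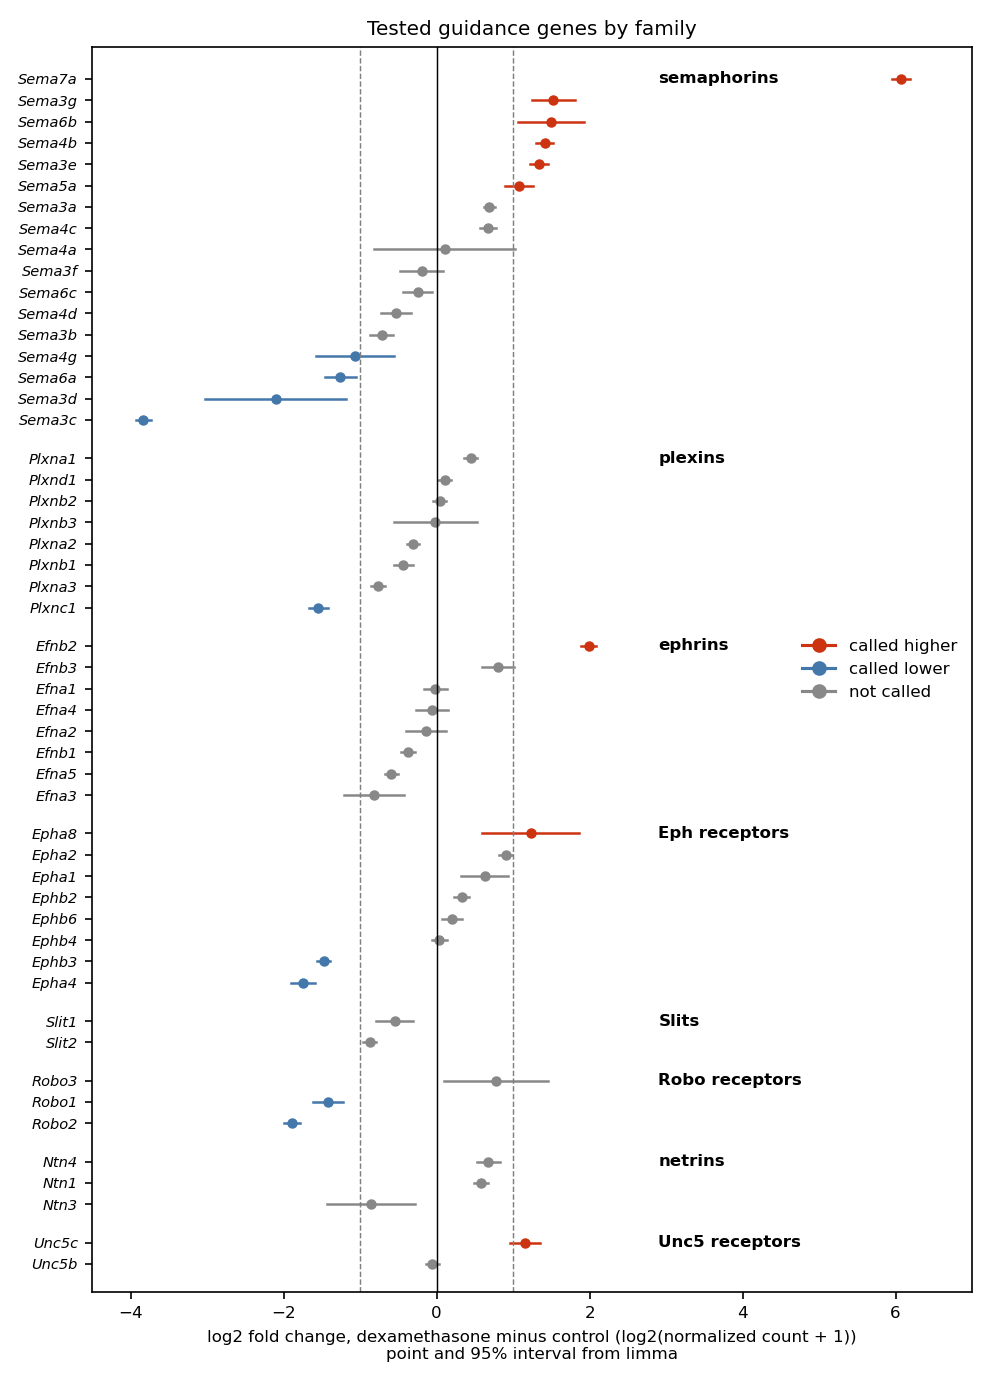
Log2 fold changes (dexamethasone minus control, limma) of the 51 tested guidance genes by family, with points for genes and bars for 95% confidence intervals (dashed lines at -1 and 1). The range runs from -3.83 for Sema3c to 6.07 for Sema7a, and most plexins and ephrins lie between the dashed lines.

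The letters upstream of the start site are shown for the cues and receptors with the greatest changes, because the treatment acts through a receptor that binds DNA. They are the 250 bases before the annotated start of the 2 genes that rose most and the 2 that fell most among called members with a mean of at least 100 normalised counts and a single annotated start (RefSeq, GRCm38.p6, strand of the gene). Capitals mark GGGCGG or its complement CCGCCC, the GC box bound by Sp1-type factors.
Sema7a, ENSMUSG00000038264, chr9:57939862-57940111, plus strand: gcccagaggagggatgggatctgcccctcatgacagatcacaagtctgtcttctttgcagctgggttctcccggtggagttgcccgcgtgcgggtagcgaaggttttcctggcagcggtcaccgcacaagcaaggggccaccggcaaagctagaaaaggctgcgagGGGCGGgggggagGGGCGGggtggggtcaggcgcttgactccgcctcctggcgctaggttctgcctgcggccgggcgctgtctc
Efnb2, ENSMUSG00000001300, chr8:8661243-8661492, minus strand: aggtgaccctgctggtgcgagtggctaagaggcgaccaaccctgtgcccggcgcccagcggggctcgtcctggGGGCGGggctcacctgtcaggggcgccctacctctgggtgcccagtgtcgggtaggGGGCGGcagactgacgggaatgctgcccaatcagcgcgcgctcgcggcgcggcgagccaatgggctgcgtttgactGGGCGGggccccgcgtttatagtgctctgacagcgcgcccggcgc
Sema3c, ENSMUSG00000028780, chr5:17574566-17574815, plus strand: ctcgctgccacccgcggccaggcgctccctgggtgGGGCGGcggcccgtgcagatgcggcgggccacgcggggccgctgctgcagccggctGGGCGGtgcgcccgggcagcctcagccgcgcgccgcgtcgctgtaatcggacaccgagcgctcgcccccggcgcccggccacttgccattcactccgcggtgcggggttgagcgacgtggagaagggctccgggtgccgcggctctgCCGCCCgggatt
Epha4, ENSMUSG00000026235, chr1:77515089-77515338, minus strand: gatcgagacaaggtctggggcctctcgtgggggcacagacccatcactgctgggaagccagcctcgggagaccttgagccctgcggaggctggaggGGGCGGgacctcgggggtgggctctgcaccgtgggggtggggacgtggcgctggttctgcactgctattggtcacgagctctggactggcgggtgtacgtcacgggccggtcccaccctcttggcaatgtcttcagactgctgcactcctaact

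All 4 stretches were rich in G and C, at 66.4% for Sema7a, 72% for Efnb2, 78.4% for Sema3c and 66% for Epha4, and each held at least 1 GC box. The promoter table had 70 promoters of 55 guidance genes. On either strand, GGGCGG was found in 48 of them (68.6%), and in 32.7% of all 32851 promoters of this length. It was found in 15 of the 21 promoters of 17 called genes, so genes that rose and genes that fell both had it. The palindrome of the glucocorticoid receptor, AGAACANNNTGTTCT, was in 0 of the 70 and in 3 promoters (0.00913%) in all. Its shorter core ACANNNTGT, which the palindrome contains, was in 3 of the 70 (4.29%) against 5.84% of all, and of the called genes only in Sema3d. The half-site letters AGAACA, also contained in the palindrome, were in 7 of the 70 (10%) against 16.1% of all, and of the called genes only in Sema6b. A match is a description of these letters and says nothing about binding.

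The semaphorins held the greatest changes of both directions. Of 17 tested semaphorins, 6 were called higher and 4 lower, or 58.8% beside 22.3% of all genes tested. Sema7a encodes a membrane-anchored semaphorin that acts through plexin C1 and integrins. It had 151, 135 and 141 normalised counts in the control libraries and 10401, 9118 and 9324 with dexamethasone. Every dexamethasone library was far above every control library. From 142 ± 7.87 (SD, n = 3) to 9615 ± 689 (SD, n = 3), this was a 67.7-fold rise with a log2 change of 6.07 (SE 0.058, limma adjusted p = 2.49e-29). Sema3c encodes a secreted semaphorin that attracts or repels through neuropilins. It had 8646, 8324 and 9175 normalised counts in the controls and 633, 590 and 608 with dexamethasone, and the groups lay far apart. It fell from 8715 ± 430 (SD, n = 3) to 610 ± 21.9 (SD, n = 3), a log2 change of -3.83 (SE 0.046, limma adjusted p = 1.71e-27), and was 14.3-fold lower.

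Sema3a, the class 3 repellent known to restrain osteoclasts and favour osteoblasts, had the highest mean count of the semaphorins. It had 15453, 16132 and 16136 normalised counts in the controls and 25404, 25736 and 25672 with dexamethasone. The groups did not overlap, as in 74.7% of all genes tested. The log2 change of Sema3a, 0.69 (limma adjusted p = 3.84e-15), was under the cut-off of 1. Sema3e, the ligand of plexin D1, had 586, 544 and 526 normalised counts in the controls and rose to 1422, 1414 and 1356, a log2 change of 1.34 (limma adjusted p = 2.36e-16). Sema3g, a class 3 semaphorin of vessels, had 67.0, 64.6 and 67.7 normalised counts in the controls and rose to 204, 197 and 178, a log2 change of 1.52 (limma adjusted p = 3.2e-10). Both genes were at least 2-fold higher, at 2.53-fold for Sema3e and 2.91-fold for Sema3g. Sema3d, a further class 3 member, had few reads. With 18.4, 31.3 and 13.2 normalised counts in the controls and 2.86, 5.45 and 3.49 with dexamethasone, it fell by 2.10 on the log2 scale (limma adjusted p = 0.000183). It was the only guidance gene that passed the filter through the level of 1 group. Sema3b was lower by less than the cut-off, with a log2 change of -0.72 (limma adjusted p = 3.42e-09), and Sema3f had one of -0.19 (limma adjusted p = 0.205). The class 3 genes thus included 2 called higher and 2 called lower.

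Among the class 4 semaphorins, which are transmembrane proteins, Sema4b was the gene called higher. It had 928, 1022 and 970 normalised counts in the controls and 2790, 2506 and 2478 with dexamethasone, a log2 change of 1.41 (limma adjusted p = 9.34e-18). Sema4c, a ligand of plexin B2, was higher by less than the cut-off at 0.68 (limma adjusted p = 9.83e-12), and opposite-strand exons of other genes cover 7.27% of its exon bases. Sema4d, the plexin B1 ligand that osteoclasts use to inhibit osteoblasts, was at 299, 345 and 310 normalised counts in the controls and 227, 210 and 222 with dexamethasone. Its log2 change was -0.53 (limma adjusted p = 2.39e-05), under the cut-off. Sema4g had 56.0, 63.6 and 51.0 normalised counts in the controls and 20.03, 24.0 and 38.4 with dexamethasone. Its fall of 1.07 on the log2 scale (limma adjusted p = 0.000469) was near the cut-off. The call was lost without control replicate 2 (-0.99), without dexamethasone replicate 1 (-0.88), after quantile normalisation (-0.96) and with 10 added to each count (-0.86). Sema4a, with 8.79 to 14.7 normalised counts in the controls and 5.45 to 25.6 with dexamethasone, had a log2 change of 0.11 (limma adjusted p = 0.842), which turned to -0.00005 with libraries scaled to the same total. Thus the class 4 genes also moved in both directions.

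Class 5 and class 6 semaphorins are transmembrane proteins with class 6 members binding A-type plexins. Sema5a had 262, 257 and 213 normalised counts in the controls and 546, 486 and 512 with dexamethasone, a log2 change of 1.08 (limma adjusted p = 1.12e-10), which was 0.98 without control replicate 3 and 0.96 with libraries scaled to the same total, both below 1. Sema6b had 31.2, 29.4 and 23.7 normalised counts in the controls and rose to 74.4, 76.3 and 93.0, a log2 change of 1.50 (limma adjusted p = 6.32e-07). Sema6a had 361, 378 and 374 normalised counts in the controls and fell to 162, 157 and 145, a log2 change of -1.26 (limma adjusted p = 2e-11). So the 2 called class 6 genes went opposite ways. Sema6c had a log2 change of -0.25 (limma adjusted p = 0.0178).

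**Figure D2:**
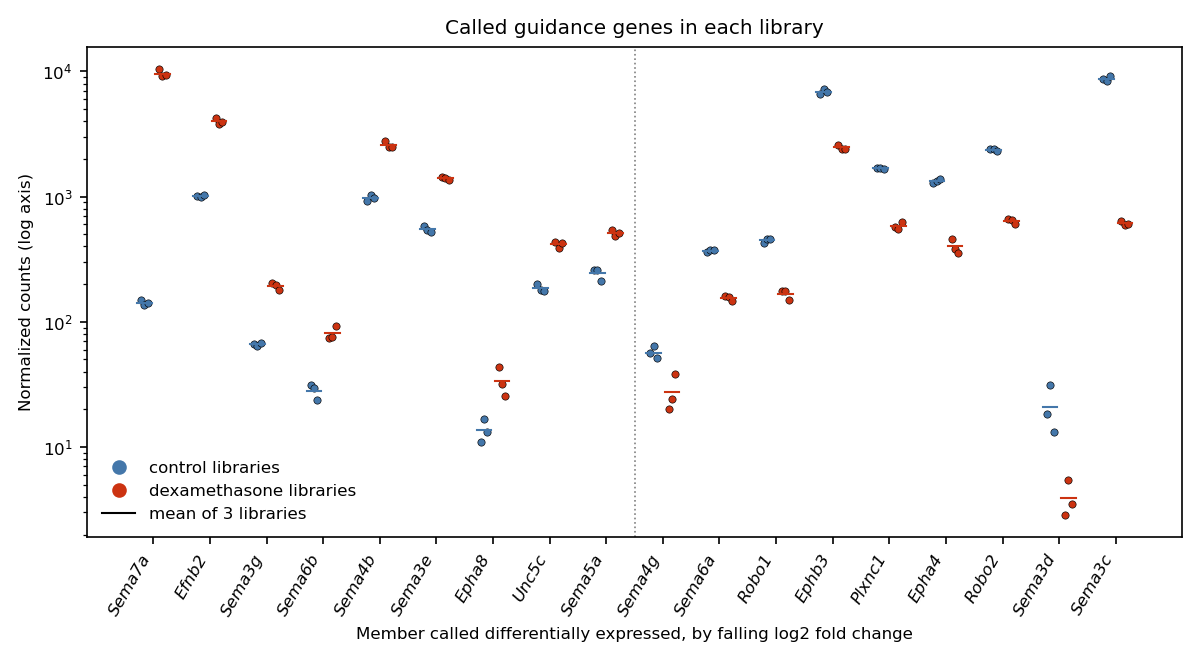
Normalised counts on a log axis of the 18 called guidance genes in each library, with points for the 3 control and 3 dexamethasone libraries and short lines for their means. The groups do not overlap for any of the 18 genes, which were picked by their difference between these same libraries. Of all genes tested, 74.7% do not overlap. Sema7a (135 to 151 against 9118 to 10401) and Sema3c (8324 to 9175 against 590 to 633) lie farthest apart.

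With counts divided by exon length, the makeup of the semaphorin messages differed between the groups. In the controls, Sema3c and Sema3a made up 36.1% ± 1.27 (SD, n = 3) and 33.9% ± 0.56 (SD, n = 3) of the summed counts per kb, and Sema7a made up 1.27% ± 0.090 (SD, n = 3). With dexamethasone, Sema7a made up 45.9% ± 1.21 (SD, n = 3), Sema3a 29.1% ± 1.47 (SD, n = 3) and Sema3c 1.35% ± 0.020 (SD, n = 3). The sum itself was 3381 ± 79.7 (SD, n = 3) counts per kb in the controls and 6344 ± 285 (SD, n = 3) with dexamethasone. Within class 3, the sum was 2630 ± 71.9 (SD, n = 3) and 2247 ± 8.07 (SD, n = 3) counts per kb, while the share of Sema3a went from 43.6% to 82.2% and that of Sema3c from 46.4% to 3.80%. These shares follow from the gene values above and were not tested separately.

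**Figure D3:**
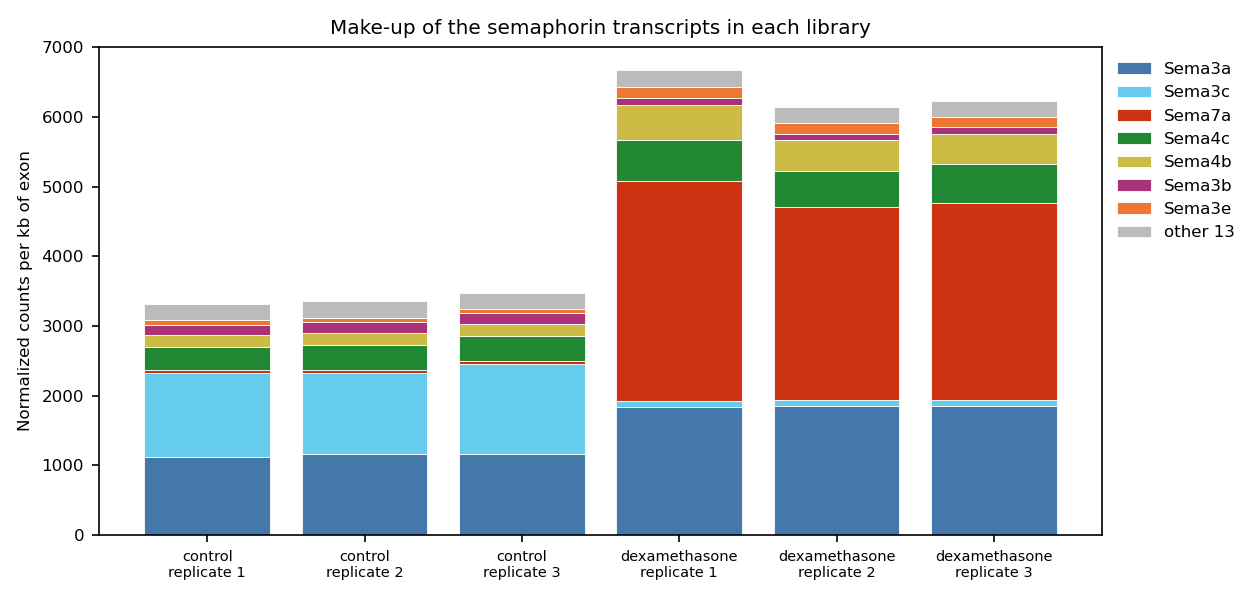
Normalised counts per kb of exon of the semaphorin genes, stacked in a bar for each of the 6 libraries, with 7 genes by colour and the other 13 in grey. Sema3c and Sema3a fill most of the 3 control bars, and Sema7a and Sema3a fill most of the 3 dexamethasone bars, which are taller.

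The plexins, the main semaphorin receptors, mostly stayed under the cut-off. Of 8 tested plexins, 0 were called higher and 1 lower by limma, edgeR and DESeq2 alike, or 12.5% beside 22.3% of all genes tested. Before and after adjustment, 2 higher and 4 lower had a limma p under 0.05, where 72.5% of all genes had an adjusted one. Plxnc1, which encodes the receptor of Sema7a, had 1697, 1707 and 1676 normalised counts in the controls and 568, 548 and 626 with dexamethasone. It fell from 1693 ± 15.7 (SD, n = 3) to 580.5 ± 40.2 (SD, n = 3), a log2 change of -1.54 (limma adjusted p = 8.2e-18), in the same libraries in which its ligand gene rose. The ratio of Sema7a to Plxnc1 counts per kb was 0.212 ± 0.0122 (SD, n = 3) in the controls and 42.1 ± 4.33 (SD, n = 3) with dexamethasone. This and the other ratios below were chosen after the values were seen and are descriptions without a test.

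Plxnb2, the receptor of class 4 semaphorins, had the highest mean count of the plexins, at 39091, 41871 and 40563 normalised counts in the controls and 43743, 40399 and 40804 with dexamethasone. The groups overlapped, and its log2 change was 0.04 (95% confidence interval -0.04 to 0.12, limma adjusted p = 0.384), with the sign turned at the same total (-0.07) and after quantile normalisation (-0.03). Plxna1, a co-receptor of class 3 semaphorins with neuropilins, had 34058, 35220 and 34652 normalised counts in the controls and 50619, 45329 and 46017 with dexamethasone. Its log2 change was 0.45 (limma adjusted p = 5.71e-10), and opposite-strand exons of other genes cover 10.7% of its exon bases. Plxna2 and Plxna3, of the same type, were lower by less than the cut-off, with log2 changes of -0.31 (limma adjusted p = 4.49e-08) and -0.77 (limma adjusted p = 8.43e-14). The A-type plexins thus differed among themselves in direction. Plxnd1, the receptor of Sema3e in vessels, had a log2 change of 0.10 (limma adjusted p = 0.0333), which turned to -0.01 at the same total and to -0.12 after quantile normalisation. Plxnb1, the receptor of Sema4d, had one of -0.43 (limma adjusted p = 4.29e-07), and Plxnb3 one of -0.01 (limma adjusted p = 0.964).

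Neuropilins are no guidance genes by the symbol rule but bind most class 3 semaphorins together with plexins. Nrp2 had 61198, 64191 and 65105 normalised counts in the controls and 13197, 11800 and 11876 with dexamethasone, a log2 change of -2.37 (limma adjusted p = 1.65e-24). Nrp1 is given here after its values were seen and had 10256, 10950 and 10530 normalised counts in the controls and 15654, 14866 and 15104 with dexamethasone, a log2 change of 0.52 (limma adjusted p = 2.25e-12). The neuropilin genes differed in direction, and the ratio of Nrp2 to Nrp1 counts per kb was 4.96 ± 0.135 (SD, n = 3) in the controls and 0.667 ± 0.0255 (SD, n = 3) with dexamethasone. Sema3c, whose product binds Nrp2, was lower in the same libraries as Nrp2, and their ratio per kb was 0.228 ± 0.0109 (SD, n = 3) and 0.0825 ± 0.00269 (SD, n = 3). For Sema3e and its receptor gene Plxnd1, this ratio was 0.0292 ± 0.0028 (SD, n = 3) and 0.0687 ± 0.00355 (SD, n = 3).

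Of the 8 ephrins, all tested, Efnb2 alone was called (12.5%, beside 22.3% of all genes tested), and it rose. It encodes ephrin-B2, the transmembrane ligand known for arterial endothelium and for the exchange between osteoclasts and osteoblasts. Efnb2 had 1003, 996 and 1031 normalised counts in the controls and 4280, 3834 and 3926 with dexamethasone. It rose 3.97-fold, from 1010 ± 18.3 (SD, n = 3) to 4013 ± 236 (SD, n = 3), a log2 change of 1.99 (SE 0.047, limma adjusted p = 6.16e-22). Efnb1, the B-type ephrin with the highest level per kb, had 7346, 7915 and 7848 normalised counts in the controls and 6309, 5530 and 5962 with dexamethasone, a log2 change of -0.38 (limma adjusted p = 2.77e-08). Efnb3 had one of 0.80 (limma adjusted p = 1.36e-07). The B-type ephrins summed to 2433 ± 89.3 (SD, n = 3) counts per kb in the controls and 2399 ± 142 (SD, n = 3) with dexamethasone, of which Efnb2 made up 6.06% ± 0.23 (SD, n = 3) and 24.4% ± 0.43 (SD, n = 3). The sums of the groups differed by less than the spread between libraries.

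The A-type ephrins are anchored to the membrane by a lipid tail, and 0 of the 5 were called by limma, edgeR or DESeq2. A limma p under 0.05 was found for 2 of them, both lower, before and after adjustment. Of all genes tested, 72.5% had an adjusted one. Efna5 was at 4055, 4099 and 4216 normalised counts in the controls and 2789, 2808 and 2623 with dexamethasone. Its log2 change of -0.59 (limma adjusted p = 1.79e-12) was under the cut-off. Efna3 had a log2 change of -0.82 (limma adjusted p = 0.000444), and opposite-strand exons of other genes cover 14.1% of its exon bases. Opposite-strand exons cover 10.5% of the exon bases of Efna4. The log2 changes of Efna1, Efna4 and Efna2 were -0.02, -0.06 and -0.14, and their adjusted p-values from limma were 0.828, 0.592 and 0.341.

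Of 8 tested Eph receptors, 1 was called higher and 2 lower, or 37.5% beside 22.3% of all genes tested. Epha4, a receptor for ephrins of both types, had 1290, 1336 and 1387 normalised counts in the controls and 461, 385 and 353 with dexamethasone. It was 3.35-fold lower, with a log2 change of -1.75 (limma adjusted p = 2e-16). Ephb3, a receptor of the B-type ephrins, had 6605, 7254 and 6817 normalised counts in the controls and 2595, 2408 and 2419 with dexamethasone. It fell by 1.48 on the log2 scale (limma adjusted p = 3.15e-20). Both genes were lower in every dexamethasone library than in any control library. Such non-overlap held for 74.7% of all genes tested, and called genes were picked by their difference between these same libraries. Epha8 had few reads, with 11.0, 16.6 and 13.2 normalised counts in the controls and 43.9, 31.6 and 25.6 with dexamethasone, and rose by a log2 change of 1.23 (limma adjusted p = 0.000978) that was 0.87 with 10 added to each count.

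Epha2, a receptor of A-type ephrins found in epithelium and bone, had the highest mean count of the Eph receptors. It had 5383, 5504 and 5418 normalised counts in the controls and 10967, 9774 and 9759 with dexamethasone. The groups did not overlap, as in 74.7% of all genes tested, and the log2 change of 0.90 (limma adjusted p = 5.13e-16) was under the cut-off. Per kb, Epha2 made up 85.9% ± 0.39 (SD, n = 3) of the A-type Eph receptors in the controls and 96.0% ± 0.14 (SD, n = 3) with dexamethasone. Ephb4, the receptor of ephrin-B2, had 3686, 3852 and 3885 normalised counts in the controls and 4186, 3575 and 3971 with dexamethasone. The groups overlapped, and its log2 change of 0.04 (95% confidence interval -0.06 to 0.13, limma adjusted p = 0.504) turned to -0.08 at the same total and to -0.12 after quantile normalisation. Ephb2, Ephb6 and Epha1 had log2 changes of 0.33, 0.20 and 0.63, all below 1, and adjusted p-values from limma of 5.25e-07, 0.0073 and 0.000518. Opposite-strand exons cover 6.01% of the exon bases of Epha1. Among the B-type receptors, Ephb3 had made up 46.2% ± 0.88 (SD, n = 3) of the counts per kb in the controls and made up 22.1% ± 0.58 (SD, n = 3) with dexamethasone, while Ephb4 made up 36.5% ± 0.63 (SD, n = 3) and 49.9% ± 1.36 (SD, n = 3). The order of the leading B-type receptor genes was thus exchanged. The ratio of Efnb2 to Ephb4 counts per kb was 0.180 ± 0.00462 (SD, n = 3) in the controls and 0.696 ± 0.0285 (SD, n = 3) with dexamethasone, and that of Efnb2 to Ephb3 was 0.142 ± 0.00798 (SD, n = 3) and 1.57 ± 0.0279 (SD, n = 3).

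**Figure D4:**
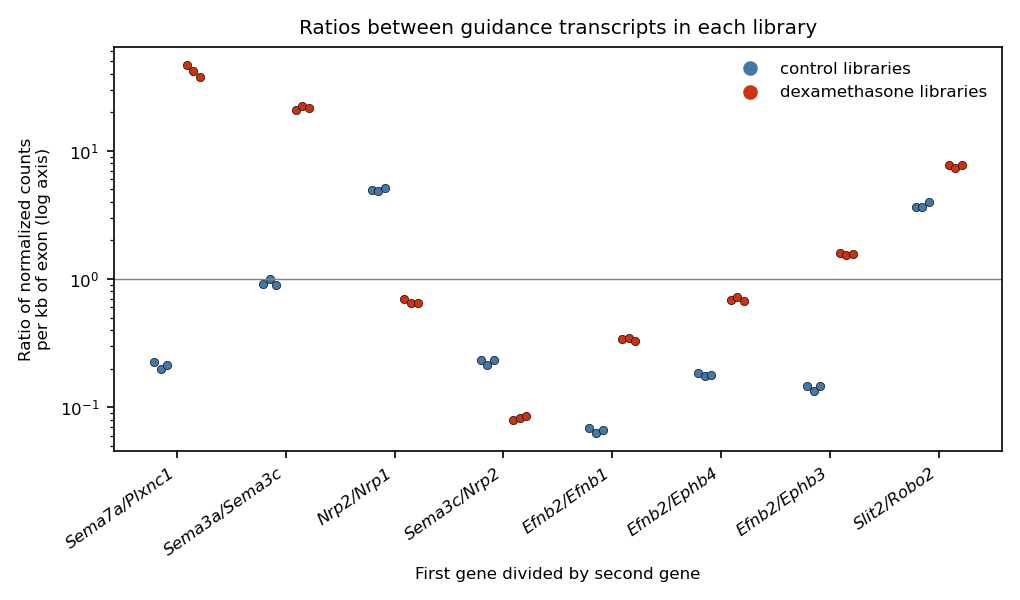
Ratios of counts per kb of exon for pairs of a cue and a receptor, or of members of a family, on a log axis, with points for the 3 control and 3 dexamethasone libraries. The ratio of Sema7a to Plxnc1 was between 0.200 and 0.225 in the controls and between 37.7 and 46.4 with dexamethasone, the widest gap of the 8 pairs plotted.

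Both the Slits and their main receptors were lower with dexamethasone, the receptors by more than the cut-off. Slit2, the secreted repellent of the family with the highest level per kb, had 13046, 13114 and 13986 normalised counts in the controls and 7759, 7159 and 6984 with dexamethasone. Its log2 change of -0.87 (limma adjusted p = 7.18e-16) was under the cut-off in size, and it was 1.83-fold lower. After quantile normalisation its log2 change was -1.09, past the cut-off. Slit1 had 193, 221 and 228 normalised counts in the controls and 134, 144 and 160 with dexamethasone, a log2 change of -0.55 (limma adjusted p = 0.000204). Neither Slit gene overlapped between the groups, where 74.7% of all genes tested did not overlap either. Called by limma, edgeR or DESeq2 were 0 of the 2. Both had a limma p under 0.05 before and after adjustment, beside an adjusted one for 72.5% of all genes. Robo2, a Slit receptor of neurons and of the kidney, had 2380, 2381 and 2324 normalised counts in the controls and 664, 649 and 601 with dexamethasone. It fell from 2362 ± 32.2 (SD, n = 3) to 638 ± 32.7 (SD, n = 3), a log2 change of -1.89 (SE 0.052, limma adjusted p = 1.58e-20). Robo1, the more widely expressed receptor, had 425, 461 and 462 normalised counts in the controls and fell to 177, 177 and 150, a log2 change of -1.42 (limma adjusted p = 1.67e-12). Both receptor genes were lower in each dexamethasone library than in any control library. Robo3, which acts against Slit repulsion in crossing axons, had 10.1, 21.5 and 14.1 normalised counts in the controls and 31.5, 22.9 and 23.3 with dexamethasone. Its log2 change of 0.77 (limma adjusted p = 0.0377) ranged from 0.53 to 1.04 with libraries left out in turn. Its limma adjusted p was 0.174 without control replicate 1, 0.0757 without control replicate 3 and 0.136 without dexamethasone replicate 1, and without control replicate 2 it passed both cut-offs (limma adjusted p = 0.0124). Robo4, the Robo receptor of endothelium, had 2, 1 and 1 reads in the controls and 5, 1 and 1 with dexamethasone, and was not tested.

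The Robo receptors summed to 169 ± 2.35 (SD, n = 3) counts per kb in the controls and 52.0 ± 3.64 (SD, n = 3) with dexamethasone, and the Slits to 563 ± 23.1 (SD, n = 3) and 312 ± 14.3 (SD, n = 3). The ratio of Slit2 to Robo2 counts per kb was 3.79 ± 0.201 (SD, n = 3) in the controls and 7.64 ± 0.238 (SD, n = 3) with dexamethasone. Cue and receptor were thus both lower.

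Of 3 tested netrins, 0 were called by limma, edgeR or DESeq2. All 3 had a limma p under 0.05 before and after adjustment, 2 higher and 1 lower. An adjusted p under 0.05 was found for 72.5% of all genes. Ntn1, which encodes netrin-1, had 5649, 6048 and 5613 normalised counts in the controls and 9478, 8261 and 8200 with dexamethasone. Its log2 change was 0.58 (limma adjusted p = 3.74e-11). Ntn4, a basement membrane netrin, had 397, 433 and 465 normalised counts in the controls and 705, 699 and 660 with dexamethasone, with a log2 change of 0.67 (limma adjusted p = 9.67e-09). Both genes were higher in every dexamethasone library than in any control library, under the cut-off. Such non-overlap held for 74.7% of all genes tested. Ntn3, with fewer reads, had a log2 change of -0.86 (limma adjusted p = 0.0078). Netrins summed to 1044 ± 40.8 (SD, n = 3) counts per kb in the controls and 1567 ± 120 (SD, n = 3) with dexamethasone.

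Among the netrin receptors, Unc5c was called. It encodes a receptor of the repulsive response to netrin-1 and had 202, 180 and 176 normalised counts in the controls and 437, 389 and 423 with dexamethasone. It rose 2.24-fold, from 186 ± 14.1 (SD, n = 3) to 416 ± 24.6 (SD, n = 3), a log2 change of 1.16 (limma adjusted p = 5.51e-11). Per kb, however, Unc5b made up 99.7% ± 0.025 (SD, n = 3) of the Unc5 receptors in the controls and 99.2% ± 0.017 (SD, n = 3) with dexamethasone. Unc5b, known from the tips of growing vessels, had 18398, 19224 and 18956 normalised counts in the controls and 19656, 17019 and 17831 with dexamethasone. The groups overlapped, and the log2 change of Unc5b was -0.06 (95% confidence interval -0.14 to 0.03, limma adjusted p = 0.241). The ratio of Ntn1 to Unc5b counts per kb was 0.305 ± 0.00929 (SD, n = 3) in the controls and 0.474 ± 0.0139 (SD, n = 3) with dexamethasone. Of the other netrin receptors, neogenin (Neo1) had a log2 change of -0.07 (limma adjusted p = 0.11), and Dcc had 0, 0 and 0 reads in the controls and 4, 1 and 0 with dexamethasone.

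**Figure D5:**
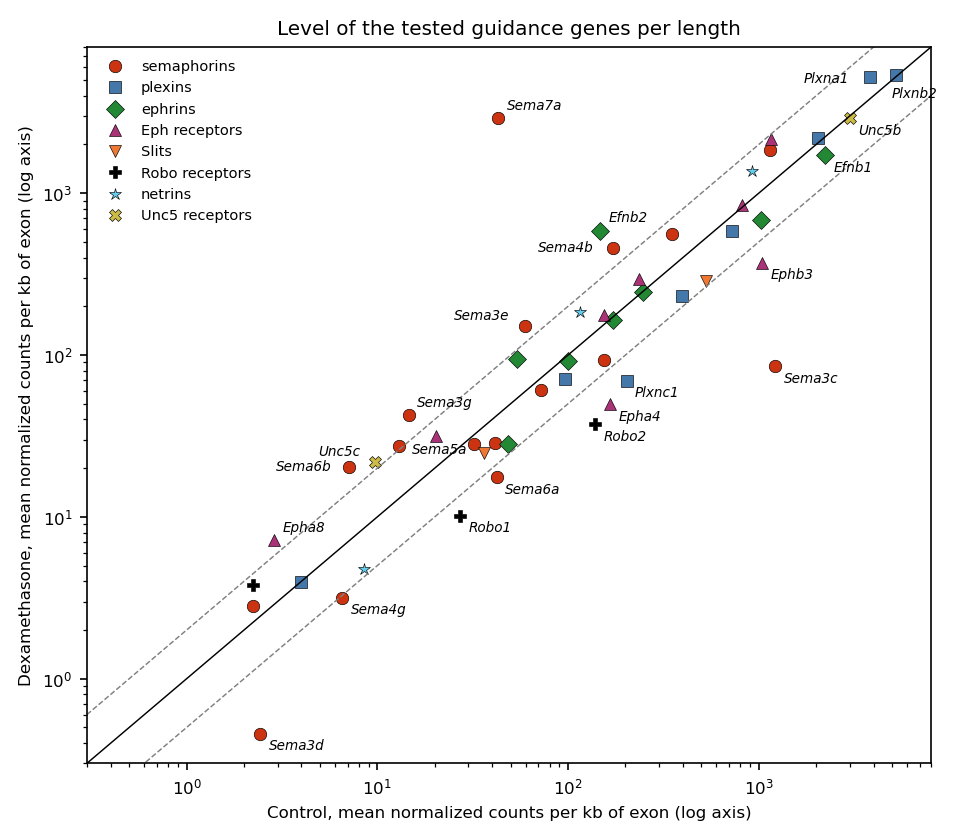
Mean normalised counts per kb of exon in the controls (x axis) and with dexamethasone (y axis), both on log axes, with a point for each tested guidance gene a solid line of equal levels and dashed lines of 2-fold differences. Sema7a stands above the line and Sema3c (1221 against 85.5) below it, while Plxnb2 and Unc5b lie near it.

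The 13 guidance genes that were not tested had 0 to 11 reads in any library. They were Sema4f, Sema5b, Sema6d, Plxna4, Epha3, Epha6, Epha10, Ephb1, Slit3, Robo4, Ntn5, Unc5a and Unc5d. Of these, Sema5b, Epha3, Epha6 and Unc5a had 3 reads or fewer in every library, the number that a count of 0 allows, so no difference was detectable at this depth. This limit covers counting error only.

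Further genes of the same pathways were chosen from textbook knowledge. Of 19 co-receptors and further ligands, 13 were tested, and limma called 1 higher and 3 lower, or 30.8% of those tested beside 22.3% of all genes. Nrp2, Flrt3 and L1cam were those called lower. Flrt3, an adhesion protein that binds Unc5 and Robo receptors, had 2064, 2308 and 2002 normalised counts in the controls and fell to 824, 787 and 913, a log2 change of -1.34 (limma adjusted p = 3.92e-16). L1cam, a partner of neuropilin-1, had 55.1, 46.0 and 56.2 normalised counts in the controls and fell to 5.72, 14.2 and 11.6, a log2 change of -2.29 (limma adjusted p = 5.2e-07). Nrcam, a related adhesion protein, had 17.4, 5.87 and 8.79 normalised counts in the controls and rose to 39.1, 36.0 and 19.8, a log2 change of 1.54 (limma adjusted p = 0.000793). Adam10, the protease that sheds ephrins and other cues, had a log2 change of 0.10 (limma adjusted p = 0.017) that turned to -0.02 at the same total and to -0.12 after quantile normalisation.

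Of 32 intracellular partners of these receptors, 30 were tested, and limma called 7 higher and 2 lower, or 30% of those tested beside 22.3% of all genes. Ngef encodes ephexin, the exchange factor that links Eph receptors to RhoA. It had 9.18, 11.7 and 14.1 normalised counts in the controls and rose to 510, 479 and 531, a log2 change of 5.34 (limma adjusted p = 4.15e-19). Rasa1, the Ras GTPase-activating protein that docks on EphB receptors, had 6850, 6811 and 6873 normalised counts in the controls and rose to 28115, 27725 and 27667, a log2 change of 2.02 (limma adjusted p = 3.93e-25). In both genes the groups lay far apart. Vav2 and Vav3, further exchange factors for Eph receptors, rose with log2 changes of 1.16 and 2.01, and the adaptor Nck2, the kinase Pak1 and the semaphorin mediator Dpysl2 with 1.30, 1.36 and 1.10. Vav2 was at 0.996 after quantile normalisation, and Dpysl2 at 0.98 with libraries at the same total and 0.92 after quantile normalisation, all below 1. Farp2, the exchange factor of plexin A1, fell by 1.03 on the log2 scale, and its log2 change was -0.999 without control replicate 3. Srgap1, which carries Robo signals, had means of 30.1 and 9.52 normalised counts and passed the filter only through the level in the controls. Its log2 change of -1.81 ranged from -2.40 to -1.30 with libraries left out in turn. Over the list, 27 of 30 genes had a limma adjusted p under 0.05, 21 higher and 6 lower, where 72.5% of all genes tested had one.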

How the data were processed

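RNA of 3 control and 3 dexamethasone libraries was sequenced from a stranded mRNA kit. Per the submitters' processing notes, STAR 2.7.10a, DESeq2 1.36.0 and the build GRCm39 were used. The deposited signal values are read counts that the authors divided by a size factor of each library. Which annotation release was counted, and with which strand setting, is not given in the sources used here. Of all values, 100% were whole reads within a tolerance of 0.001, so reads were recovered. Symbols came from GENCODE M21 (28087 of 29616 identifiers), which also gave exon lengths. The members and lists were chosen with earlier results of these data known.

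Genes with a mean of at least 10 normalised counts were compared as log2(count + 1) with limma 3.58.1 (R 4.3.3) and Benjamini-Hochberg adjustment over 17442 genes, after the cut-offs of the study's methods. Values in every library were given for called members and the 2 members of each family with the highest mean. Those of Sema4d, Ephb4, Robo3, Robo4, Nrp1 and Dcc were added after their values were seen, and other tested members are given by their log2 change. Alternatives were count models run on these reads (edgeR 4.0.16, DESeq2 1.42.0), other scalings, filters, pseudocounts and each library left out. On simulated data for this comparison with 17442 genes, of which 200 were changed by 2 on the log2 scale, limma recovered 200 with 2 false calls. Recovery of changes nearer the cut-off of 1, or with a larger share of genes changed, was not tested. Replicates differed by more than sampling noise (chi-square per degree of freedom 3.56 to 28.9). Where libraries are not from separate mice, p-values measure only the spread between these libraries. Opposite-strand overlaps above 5% of exon bases are given for tested members, because the strand setting is not known.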

Additional observations from a re-analysis of the deposited data

How the results depend on the processing

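Alternatives were followed for 68 genes, which included the 51 tested guidance genes. The rest were the called genes of the further lists and those with the highest means. Nrp1 and the cell type markers were not among them. Of the 68 genes, 31 were called, and 25 of these kept their call and direction in each of the 18 alternatives that gave them a value. Under the adjusted p alone, only the fold change requirement is dropped, so a called gene could not lose its call there. Sema4g, Sema5a, Epha8, Vav2, Dpysl2 and Farp2 each lost the call under at least 1 alternative, through a log2 change below 1 in size. Besides the adjusted p alone, calls were gained by Slit2 after quantile normalisation (-1.09), by Robo3 without control replicate 2 (1.04), by Efna3 without dexamethasone replicate 1 (-1.05) and by Ntn3 without dexamethasone replicate 2 (-1.06). No called gene changed direction. With the adjusted p alone, 42 guidance genes passed (21 higher, 21 lower), 10 co-receptors and further ligands, and 27 intracellular effectors. With a minimum mean of 100, 2 co-receptors and further ligands were called, and genes such as Sema3d, Sema4g, Sema6b and Epha8 had no value. The median of the guidance genes was -0.13 with libraries at the same total, where the median of all genes moved to -0.11. With libraries left out in turn, 17 to 19 guidance genes were called (8 to 10 higher, 8 to 10 lower), with a median of -0.053 to -0.0024, beside 4 co-receptors and further ligands and 8 to 10 effectors. With the replicate number as a block, the counts were 18 (9 higher, 9 lower), 4 and 9, and no call changed. Same-numbered deviations correlated at -0.0999, -0.105 and -0.0199, which cannot tell whether libraries of the same number were paired.

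Uncalled genes near 0 changed sign. At the same total, Sema4a was at -0.000055, Ephb4 at -0.0783, Plxnd1 at -0.0104, Plxnb2 at -0.0744 and Adam10 at -0.0177. After quantile normalisation, Ephb4 was at -0.121, Plxnd1 at -0.118, Plxnb2 at -0.0272, Plxnb3 at 0.0958 and Adam10 at -0.12. With libraries left out in turn, the range was -0.37 to 0.65 for Sema4a, -0.053 to 0.0038 for Efna1, -0.11 to 0.021 for Efna4, -0.015 to 0.099 for Ephb4, -0.28 to 0.022 for Efna2 and -0.052 to 0.0070 for Plxnb3. The cause was not tested. Sequencing depth limits the 13 genes of 11 reads or fewer and the fold changes of Sema3d, Epha8 and Robo3.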
